A study of Cucumis melo with 4 samples.

Results

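The ethylene receptors, signalling proteins and ethylene response factors of melon (Cucumis melo) were followed across bulked plants of 4 sex types. Members were taken by words in the annotation of assembled transcripts (unigenes): the unigene had to be paired with a melon coding sequence (CDS), and the product name had to hold an ethylene receptor, ethylene-insensitive, EIN3, ethylene response or AP2-like term. This gave 50 of 76260 unigenes, or 50 of the 11737 with a melon CDS, and the words of the rule use no measured value, though they were chosen with earlier results of these data known. By product name alone they comprised 2 receptors, 5 signalling proteins, 39 ethylene response factors (ERFs) and 4 AP2-like factors, under 41 product names.

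Ethylene is a gaseous plant hormone that favours female flower development in melon and its relatives. Its receptors sit in membranes and hold the pathway off while no ethylene is bound, through the kinase CTR1. Once ethylene binds, the membrane protein EIN2 passes the signal on to EIN3 and its relatives in the nucleus, which F-box proteins of the EBF type otherwise mark for breakdown. EIN3-type proteins switch on ERF genes, and ERFs share a DNA-binding domain with the AP2-like factors, many of which act in organ growth rather than in the ethylene response.

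Each sex type was represented by 1 library from a bulk of recombinant inbred lines, whose RNA was extracted line by line and mixed in equal amounts. By the sample labels the gynoecious plants (female flowers only) were AAgg, the hermaphrodite plants (bisexual flowers only) aaGG, the andromonoecious plants (male and bisexual flowers) aagg and the monoecious plants (male and female flowers) AAGG. The headers of the authors' locus tables exchange aaGG and aagg between the andromonoecious and the hermaphrodite plants, so the g allele is called "labelled" here. Each of the 4 bulks mixed leaves, axillary buds and flower buds from 4 stages, and fewer cells of a type cannot be told apart from less RNA per cell. The hermaphrodite library came from another flow cell than the other 3, so its flow cell cannot be told apart from its sex type.

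Library totals were 26.09 M reads for the gynoecious, 27.04 M for the hermaphrodite, 25.51 M for the andromonoecious and 26.39 M for the monoecious bulk. Levels are given as RPKM (reads per kilobase of unigene and per M reads of the library), and reads were recovered from these values. With 1 library per sex type, no difference between single libraries has a replicate check, and intervals are exact binomial 95% ranges that cover counting error only. Tissue markers were taken from the same annotation. The 21 unigenes named as photosystem, chlorophyll-binding or Rubisco small subunit proteins had a median level of 2.60 RPKM and summed to 111 RPKM in the gynoecious, 138 in the hermaphrodite, 114 in the andromonoecious and 125 in the monoecious library. The 13 unigenes taken by floral organ words summed to 163, 77.5, 94.2 and 98.4 RPKM in the same order. Without 1 unigene named AGL19 the other 12 summed to 55.1, 43.4, 40.7 and 53.9 RPKM. The word AGAMOUS also took up Agamous-like names such as AGL19, AGL21, AGL61 and AGL62, so these sums do not measure floral organ content. The unigene named AGL21 alone had 1.12 RPKM in the gynoecious and 19.0 in the monoecious library. The 8 pollen and anther markers summed to 126, 195, 133 and 148 RPKM. The part of tissue make-up in the results was not tested.

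The names themselves have a limit that bears on every value here, because the deposited files pair unigenes with CDS in conflicting ways. The library files use the pairs of the authors' BLAST table: this held for each of the 11140 unigenes that have a CDS in both, while 597 unigenes with a CDS in the library files are not in that table. Of its rows, 2247 of 11805 (19.0%) carry an alignment, alike in identity, length, mismatches, gaps and query positions, that is also listed for another CDS. Of the 921 groups of such rows, 681 hold more than 1 product name. The alignment shared by most product names stands beside 18 CDS under 13 names, each with 100% identity over 136 nt at query positions 4260 to 4395, and each with a unigene of its own. In the authors' deposited table for gynoecious against monoecious plants, 1049 of 1058 rows carry the library file's RPKM for the unigene they list, but only 16 rows pair that unigene with the CDS that the library file gives it. Which pairing is right was not tested, so members are called here by unigene and by the name the library files give, and the values under the other pairing are set beside them below.

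Among the members, 30 of 50 matched their CDS with at least 95% identity over at least 100 nt. The receptors and signalling proteins were all among these, with matches of 223 to 1172 nt. Of the ERFs 22 of 39 were, with identities of 80.9 to 100% over 31 to 1063 nt, and of the AP2-like members 1 of 4. Matches were shorter than 100 nt for 12 members, and 6 members carried an alignment that is listed for another CDS too. Unigenes named ERF109, WIN1 and SHINE 3 shared 1 such alignment of 31 nt.

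Most members were weakly expressed. The members took 0.196% of all recovered reads in the gynoecious, 0.139% in the hermaphrodite, 0.293% in the andromonoecious and 0.156% in the monoecious library. The unigenes named ANT, BBM1 and RAP2-7 carried most of these reads: without them the shares were 0.0269% in the gynoecious, 0.0284% in the hermaphrodite, 0.0266% in the andromonoecious and 0.0258% in the monoecious library. The median level of the 50 members was 2.70 RPKM in the gynoecious, 2.35 in the hermaphrodite, 2.74 in the andromonoecious and 2.51 in the monoecious library. Over the unigenes with a melon CDS, which every member had to have, the medians were 2.52, 2.73, 2.43 and 2.43 RPKM in the same order. Over all unigenes they were 1.57, 1.63, 1.50 and 1.56 RPKM. Of the 50 members, 31 had at least 100 reads over the 4 libraries, and 19 had fewer. No read was found for 5 members in the gynoecious, 5 in the hermaphrodite, 2 in the andromonoecious and 5 in the monoecious library.

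**Figure D1:**
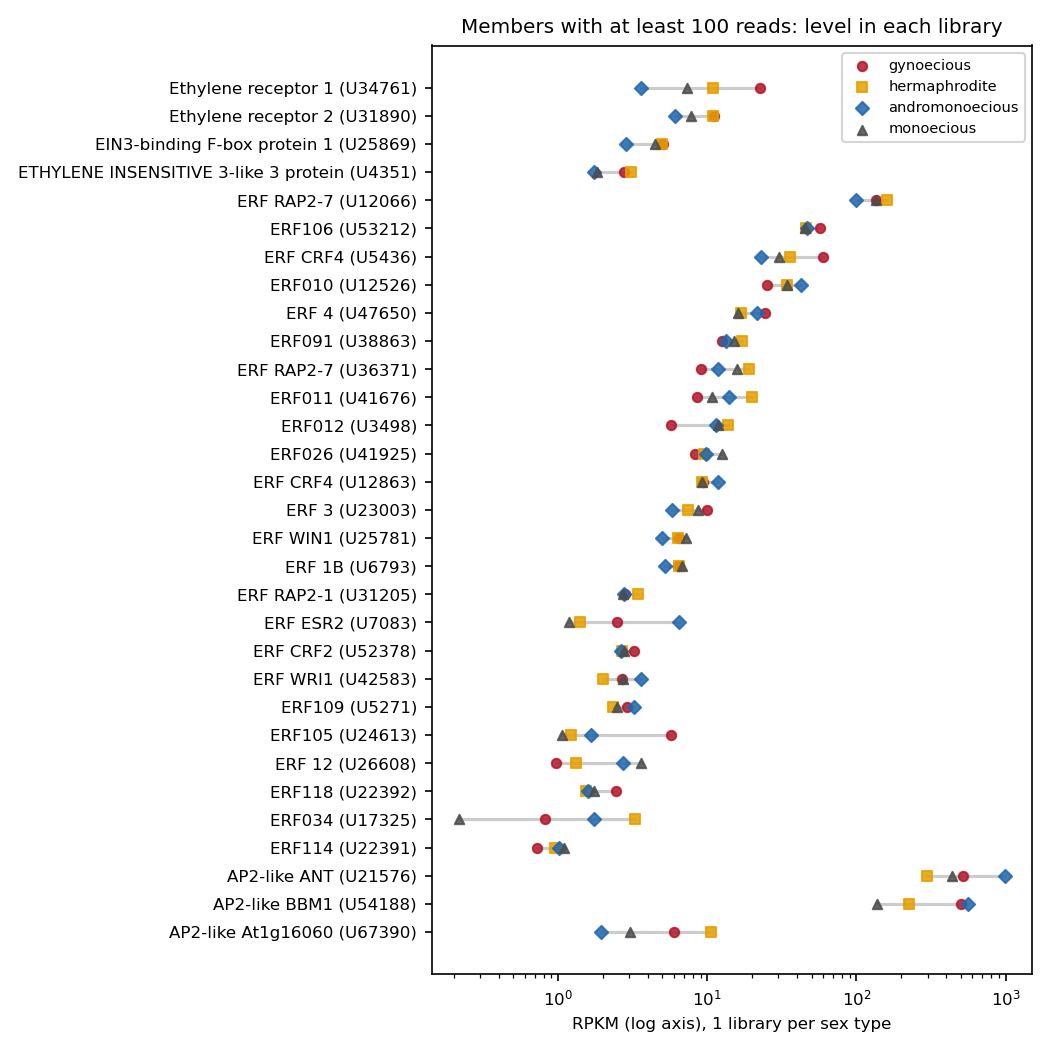
Level of the 31 members with at least 100 reads over the 4 libraries, in RPKM on a log axis, with 1 point per library and a grey line between the lowest and the highest; U stands for Unigene. The unigene named ANT sits highest, between 299 and 987 RPKM, and the one named ERF034 shows the widest gap, with 3.27 RPKM in the hermaphrodite and 0.216 RPKM in the monoecious library.

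Both unigenes named as receptors had their highest levels in the plants without male flowers. Ethylene receptor 1 (Unigene34761), the receptor type first known from Arabidopsis as ETR1, stood at 22.5 RPKM in the gynoecious, 10.9 in the hermaphrodite, 3.60 in the andromonoecious and 7.35 in the monoecious library. These levels rest on 620, 311, 97 and 205 reads. The gynoecious level was thus the highest and the andromonoecious the lowest, with no overlap between plants with and without male flowers. In TMM-scaled reads the gynoecious library was 2.80-fold (2.39 to 3.30) above the monoecious one, and the andromonoecious library 0.181-fold (0.145 to 0.225) the gynoecious one. Ethylene receptor 2 (Unigene31890), of the other receptor subfamily, varied less, at 11.1 RPKM in the gynoecious, 10.9 in the hermaphrodite, 6.07 in the andromonoecious and 7.77 in the monoecious library. Its gynoecious and hermaphrodite levels lay within counting error of each other, with a hermaphrodite over gynoecious ratio of 0.969 (0.846 to 1.11). The andromonoecious library was again the lowest, 0.809-fold (0.678 to 0.964) the monoecious one.

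With 2 libraries a side, neither receptor passed the test across all unigenes. On log2(RPKM + 1), plants with male flowers were lower than plants without by 1.43 ± 0.51 (SE) for receptor 1 (limma, adjusted p = 0.593) and by 0.61 ± 0.39 for receptor 2 (limma, adjusted p = 0.685). For receptor 1 the difference was -0.94 without the gynoecious library, -1.92 without the hermaphrodite, -1.0 without the andromonoecious and -1.86 without the monoecious one. On the aa against AA and the labelled gg against labelled GG split, the libraries of the sides overlapped for both receptors.

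The unigenes named as signalling proteins had few reads. EIN3-like 3 (Unigene4351), counted here by its name as a relative of EIN3, stood at 2.74 RPKM in the gynoecious, 3.09 in the hermaphrodite, 1.75 in the andromonoecious and 1.81 in the monoecious library, from 72, 84, 45 and 48 reads. Whether it acts in the ethylene response was not tested. One of the 3 unigenes named EIN3-binding F-box protein 1 (Unigene25869) had 5.01, 5.0, 2.83 and 4.44 RPKM in the same order, from 29, 30, 16 and 26 reads. Both were lower in each library with male flowers than in each without, by 0.49 ± 0.39 and 0.40 ± 0.41 on the log2 scale (limma, adjusted p = 0.743 and 0.809). For Unigene25869 the gynoecious and monoecious libraries lay within counting error, at a ratio of 1.03 (0.587 to 1.83), and without the andromonoecious library the difference was -0.14. The other signalling members did not follow this order. EIN2 (Unigene54817) had 10 reads in the gynoecious, 14 in the hermaphrodite, 26 in the andromonoecious and 15 in the monoecious library, so its highest level was in the andromonoecious bulk. F-box protein 1 of Unigene59209 had 23, 14, 34 and 11 reads, and that of Unigene2566 had 2, 0, 6 and 12 reads. Over the 7 receptor and signalling members, 4 were lower and 2 higher in both libraries with male flowers than in both without, and 1 overlapped. Those 4 lower members were the only ones of the 7 with at least 100 reads in all. Over all 34820 unigenes with at least 100 reads, 27.3% were lower and 14.2% higher in this way, and 19.7% and 19.9% after TMM scaling.

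Other genes of the pathway, which the member words do not take up, were listed by name. Of 15 unigenes with other signalling words, 11 were named CTR1, the kinase that the receptors hold active. RAN1, which supplies the receptors with copper, had 4.93 RPKM in the gynoecious, 3.88 in the hermaphrodite, 3.91 in the andromonoecious and 5.47 in the monoecious library. The unigene named ETO1-like protein 1 (Unigene31850), of a family that promotes the breakdown of ACC synthase, had 0.0310, 0.0598, 0.952 and 0.583 RPKM in the same order. With 52 reads in all, both libraries with male flowers lay above both without. This held too for the CTR1 Unigene44247, at 1.09, 0.420, 5.42 and 3.59 RPKM, while the CTR1 Unigene22355 and Unigene24267 went the other way. Of all unigenes with at least 100 reads, 14.2% lay higher in this way, and 19.9% after TMM scaling. Another 2 of the 15 unigenes were amino acid transporters that the word CTR1 took up from a database entry name. Of these 15 unigenes 12 were tested, and 0 were called in any split (limma). At an unadjusted p under 0.05 there were 0 for aa against AA, 0 for labelled gg against labelled GG and 1 for plants with against without male flowers. A list drawn up for ethylene synthesis held 10 unigenes, of which 1 was named as a deaminase, which breaks down the precursor ACC, and 3 as homologs of ACC oxidase. Of these 10 unigenes 6 were tested with 0 calls, and 0, 1 and 0 had an unadjusted p under 0.05 in the splits in the same order. The 6 without the deaminase and the homologs, 2 of them tested, summed to 22.1 RPKM in the gynoecious, 12.7 in the hermaphrodite, 13.6 in the andromonoecious and 16.6 in the monoecious library. Of 80 unigenes of chitinases, expansins and other families with members known to respond to ethylene, 61 were tested with 0 calls. An unadjusted p under 0.05 was reached by 5 for aa against AA (8.20%, against 2.75% of all unigenes), by 3 for labelled gg against labelled GG (4.92%, against 5.09%) and by 5 for plants with against without male flowers (8.20%, against 8.19%). The 4 unigenes of the dehydration-responsive branch of the AP2/ERF family held 1 that could be tested, and it was not called.

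The unigenes with AP2-like in their product name held the highest levels and the widest absolute range. The unigene named ANT (Unigene21576), after a regulator of organ growth and ovule formation in Arabidopsis, stood at 519.6 RPKM in the gynoecious, 299 in the hermaphrodite, 987 in the andromonoecious and 438 in the monoecious library. The andromonoecious level was the highest and the hermaphrodite the lowest, a hermaphrodite over andromonoecious ratio of 0.265 (0.261 to 0.270). The unigene named BBM1 (Unigene54188), after a factor of embryo formation, stood at 506, 224, 563 and 138 RPKM in the same library order. Both libraries labelled gg (gynoecious and andromonoecious) lay above both labelled GG (hermaphrodite and monoecious) for each of these unigenes. The gynoecious library was 3.35-fold (3.19 to 3.51) and the andromonoecious 4.22-fold (4.02 to 4.42) above the monoecious one for BBM1. The split gave a log2 difference of 1.60 ± 0.44 for BBM1 and of 0.98 ± 0.49 for ANT, each with an adjusted p of 0.913 (limma). The matches behind these names were short, with 69 nt at 89.9% identity for BBM1 and 204 nt at 97.5% for ANT.

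The remaining AP2-like members were low. The unigene named At1g16060 (Unigene67390) had 5.99 RPKM in the gynoecious, 10.6 in the hermaphrodite, 1.93 in the andromonoecious and 3.05 in the monoecious library, from 35, 64, 11 and 18 reads. Both libraries with male flowers lay below both without, by 1.39 ± 0.44 on the log2 scale (limma, adjusted p = 0.592). Its match was 65 nt long, and the authors' deposited table gives its CDS (MELO3C010195) 0.214 RPKM in the gynoecious, 1.76 in the hermaphrodite, 2.08 in the andromonoecious and 3.49 in the monoecious library. Under that pairing both libraries with male flowers lay above both without. AIL6 (Unigene69095), named after another factor of organ growth, had 0, 9, 1 and 5 reads in the same order.

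Among the unigenes classed as ERFs by product name, the highest levels were those of RAP2-7, ERF106, CRF4 and ERF010. The first pair varied little between sex types. The product name does not settle to which branch of the family a unigene belongs. RAP2-7 (Unigene12066), named after a factor that in Arabidopsis delays flowering, stood at 136 RPKM in the gynoecious, 161 in the hermaphrodite, 99.2 in the andromonoecious and 135 in the monoecious library. ERF106 (Unigene53212) had 57.3, 45.7, 46.3 and 45.4 RPKM in the same order, a ratio of 1.27 between the highest and the lowest library after scaling. CRF4 (Unigene5436), of the cytokinin response factors, had 59.3, 36.0, 22.9 and 30.4 RPKM. For CRF4 both libraries with male flowers lay below both without. For RAP2-7 this held in RPKM but not in TMM-scaled reads, where the gynoecious library stood at 0.926-fold (0.896 to 0.957) the monoecious one and the sides overlapped. For ERF106 the sides overlapped on both scales. ERF010 (Unigene12526) ran the other way, at 25.0 RPKM in the gynoecious, 34.2 in the hermaphrodite, 42.2 in the andromonoecious and 34.3 in the monoecious library. Both libraries with male flowers lay above both without, but the monoecious and hermaphrodite levels were nearly equal. The matches behind 2 of these names were weak, with 158 nt at 81.7% identity for RAP2-7 and 115 nt at 80.9% for ERF010.

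Among the ERFs named for their large ratios between libraries, several rested on few reads. ERF105 (Unigene24613) was high in the gynoecious library alone, with 128 reads there, 28 in the hermaphrodite, 36 in the andromonoecious and 24 in the monoecious library. This is 4.94-fold (3.18 to 7.99) for gynoecious over monoecious plants. The match behind the name ERF105 was only 54 nt long. ESR2 (Unigene7083), known in Arabidopsis from shoot regeneration, was high in the andromonoecious library, with 46 reads in the gynoecious, 27 in the hermaphrodite, 117 in the andromonoecious and 22 in the monoecious one. It was 5.70-fold (3.59 to 9.45) higher in andromonoecious than in monoecious plants. ERF034 (Unigene17325) had 15, 62, 31 and 4 reads in the same library order, so both aa libraries (hermaphrodite and andromonoecious) lay above both AA libraries (gynoecious and monoecious). Its log2 difference was 1.20 ± 0.50 for aa against AA (limma, adjusted p = 1.000), and its match had 82.0% identity over 100 nt. ERF 12 (Unigene26608) had 15, 21, 41 and 56 reads in the same order, and both libraries with male flowers lay above both without, by 0.95 ± 0.40 (limma, adjusted p = 0.605).

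The gynoecious library was the lowest for 9 of 31 members (29.0%), against 30.3% of all unigenes, and 3 of those with a ratio of at least 2-fold are described here. ERF012 (Unigene3498) had 5.68 RPKM in the gynoecious, 13.8 in the hermaphrodite, 11.4 in the andromonoecious and 11.7 in the monoecious library. This was 0.443-fold (0.326 to 0.597) for gynoecious over monoecious plants. Its recovered length of 452 nt is shorter than its listed match of 719 nt. Its reads and this interval, or the match, may thus be wrong, while its RPKM stand as deposited. ERF011 (Unigene41676) had 8.56, 19.8, 13.9 and 10.7 RPKM in the same order. The second RAP2-7 unigene (Unigene36371), named from a match of 68 nt at 85.3% identity, had 9.05, 18.9, 11.8 and 15.7 RPKM. For each of these 3 unigenes the gynoecious level was the lowest and the hermaphrodite the highest, as it was, with a smaller ratio of 1.34, for ERF091 (Unigene38863). ERF 12 (Unigene26608), described above, was also lowest in the gynoecious library, with a larger ratio of 3.85. Its highest level was in the monoecious library, so the hermaphrodite peak is not shared by all such members.

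Ratios of 1.66 or less between the highest and the lowest library were found for ERF026 (Unigene41925), ERF114 (Unigene22391), ERF118 (Unigene22392), ERF109 (Unigene5271), ERF 3 (Unigene23003), ERF 4 (Unigene47650) and a second CRF4 (Unigene12863). ERF 3 and ERF 4 are named after repressors. ERF026 was highest in the monoecious library at 12.6 RPKM, against 8.31 RPKM in the gynoecious library, its lowest. WRI1 (Unigene42583), named after a regulator of oil synthesis in seeds, had 2.66 RPKM in the gynoecious, 2.01 in the hermaphrodite, 3.60 in the andromonoecious and 2.70 in the monoecious library. WIN1 (Unigene25781), named after a regulator of wax and cutin, had a ratio of 1.39. The 19 members under 100 reads included ERF025 (Unigene67337), with 27, 7, 4 and 0 reads in gynoecious, hermaphrodite, andromonoecious and monoecious plants, and ERF 9 (Unigene75379), with 9, 0, 0 and 0 reads. These 2 lie outside the rule for named genes and were chosen after their values were seen.

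The spread across the 4 libraries was described for the members beside all unigenes. Over the 31 members with at least 100 reads, the median ratio between the highest and the lowest library was 1.62, against 2.26 over 34820 unigenes. A ratio of at least 2-fold was found for 13 members (41.9%), against 60.0% of all unigenes, and of at least 4-fold for 6 (19.4%), against 18.8%. The highest library was the gynoecious one for 10 members (32.3%, against 30.2% of all unigenes), the hermaphrodite for 9 (29.0%, against 22.0%), the andromonoecious for 7 (22.6%, against 22.5%) and the monoecious for 5 (16.1%, against 25.3%).

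Setting libraries against each other in pairs gave few members at least 2-fold apart. Gynoecious over monoecious plants had 4 of 31 members at least 2-fold higher and 2 lower, against 17.8% and 18.8% of all unigenes held to the same minimum of 50 reads. Hermaphrodite over monoecious plants had 2 of 30 higher and 1 lower, against 11.5% and 11.7%, and andromonoecious over monoecious plants 3 of 28 higher and 0 lower, against 11.7% and 10.1%. Hermaphrodite over gynoecious plants had 4 of 30 higher and 4 lower, against 14.2% and 12.9%. The andromonoecious over gynoecious pair had 4 of 29 higher and 4 lower, against 15.7% and 12.2%, and the hermaphrodite over andromonoecious pair had 2 of 30 higher and 5 lower, against 9.42% and 11.2%. These pairs share libraries. The shares furthest below the background were the 6.45% lower for gynoecious over monoecious plants and the 0% lower for andromonoecious over monoecious plants. Furthest above it was the 16.7% lower for hermaphrodite over andromonoecious plants. With 28 to 31 members a pair, these gaps rest on few members and were not tested.

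No member passed the test in any of the 3 ways to set 2 libraries against 2. Of 40 members tested, 0 were called for aa against AA (limma; 0.0121% of all 49733 unigenes tested were called), 0 for labelled gg against labelled GG (0% called) and 0 for plants with against without male flowers (0.00201% called). At an unadjusted p under 0.05 there were 1, 2 and 3 members, or 2.5%, 5.0% and 7.50%, against 2.75%, 5.09% and 8.19% of all unigenes. edgeR's quasi-likelihood test on recovered reads called 0 members in each split, and 0% of all unigenes tested. DESeq2 called 0 members too, against calls for 0.105% of 28520, 0.0870% of 33341 and 0.747% of 37198 unigenes that it gave an adjusted p. At an unadjusted p under 0.05, edgeR had 1, 2 and 2 members and DESeq2 had 1, 4 and 1. The matching shares of all unigenes were not counted, so these numbers are not a result about the members. The smallest adjusted p of a member in DESeq2 was 0.180, for BBM1 (Unigene54188) on the labelled g split.

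A split can also be read by rank, counting members whose libraries on 1 side all lie beyond those on the other. For aa against AA, 2 of 31 members were higher and 4 lower, against 11.8% and 11.8% of all unigenes. For labelled gg against labelled GG, 8 were higher and 4 lower, against 15.4% and 19.5%. For plants with against without male flowers, 5 were higher and 8 lower, against 14.2% and 27.3%. In TMM-scaled reads, a scaling chosen after the data were seen, this last split had 6 higher and 6 lower, against 19.9% and 19.7%, and the receptors, EIN3-like 3 and Unigene25869 stayed among the lower. The median log2 difference of the members was 0.02, -0.07 and -0.06 in these splits, against 0.00, -0.01 and -0.12 over all unigenes tested.

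**Figure D2:**
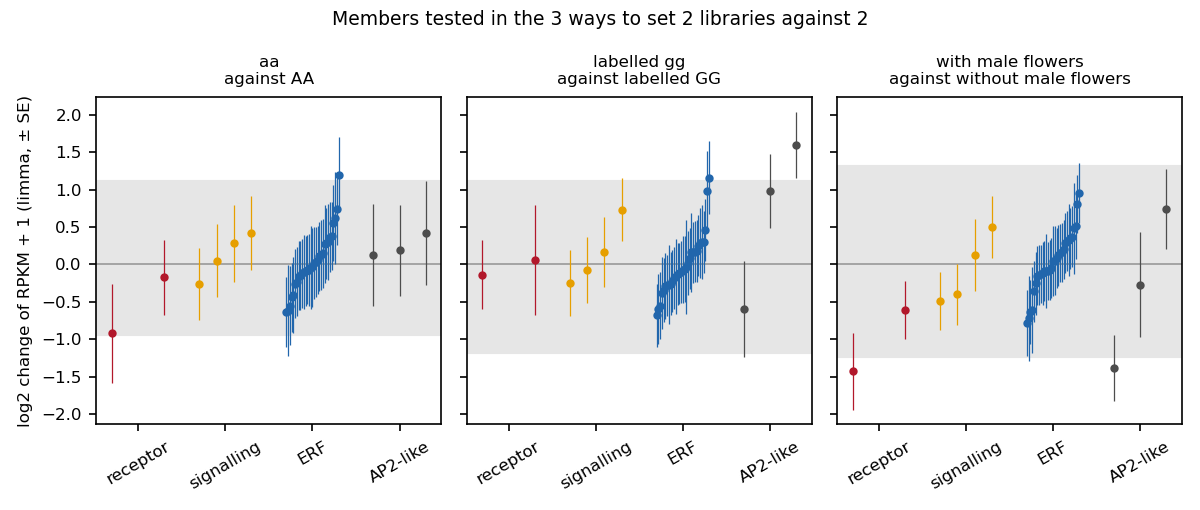
Log2 difference of RPKM + 1 for the 40 members tested, by role, in the 3 ways to set 2 libraries against 2; points are limma estimates, bars ± SE, and the grey band holds the middle 95% of all unigenes tested. Receptor 1 at -1.43 and At1g16060 at -1.39 lie lowest in plants with male flowers, and BBM1 at 1.60 lies highest in plants labelled gg; 0 of 40 members passed the adjusted threshold.

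The authors' deposited tables list ethylene CDS with other reads than the member of the same CDS. The 4 tables hold 25 rows for 18 such CDS, of which 17 are also the CDS of a member, and for 0 of these 17 do the listed reads belong to the member unigene. Each listed set of RPKM values belonged to exactly 1 other unigene. In 20 of the 25 rows the listed log2 ratio was that of the listed RPKM, within 0.05.

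For ethylene receptor 1 (MELO3C003906) the authors' deposited table has 5.75 RPKM in the gynoecious, 4.18 in the hermaphrodite, 2.61 in the andromonoecious and 1.97 in the monoecious library, the values of Unigene39771. The order of the 2 lowest libraries is thus turned round against Unigene34761, while the gynoecious library is the highest under both pairings. The listed log2 ratio of gynoecious over monoecious plants is 2.60 in the authors' deposited table, whereas its listed RPKM give 1.55. For monoecious over andromonoecious plants the listed log2 ratio is -2.86, whereas the listed RPKM give -0.41.

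ERF106 (MELO3C005466) has 7.33 RPKM in the gynoecious, 15.7 in the hermaphrodite, 20.4 in the andromonoecious and 36.0 in the monoecious library in the authors' deposited table. The gynoecious library is thus the lowest there and the highest for Unigene53212.

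For some ERFs the authors' deposited table points to unigenes with far more reads. CRF4 (MELO3C005867) has 343 reads in the gynoecious, 2837 in the hermaphrodite, 2415 in the andromonoecious and 2093 in the monoecious library there, whereas the member unigene (Unigene62494) has 0, 0, 3 and 1. RAP2-3 (MELO3C006688), of a group known from the response to low oxygen, has 316, 1766, 1701 and 904 reads in the authors' deposited table, and its member unigene (Unigene55261) 7, 11, 12 and 8. Under the authors' pairing both were lowest in the gynoecious library, with listed log2 ratios of gynoecious over hermaphrodite plants of -3.0 and -2.43. ERF114 (MELO3C024989) is listed in the authors' deposited table with 187, 831, 3079 and 737 reads in the same library order, most in the andromonoecious bulk, against 19, 26, 26 and 29 reads for Unigene22391.

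Further CDS kept the order of their libraries, changed it, or changed greatly in read number between the pairings. ERF025 (MELO3C006870) has 575, 191, 179 and 65 reads in the gynoecious, hermaphrodite, andromonoecious and monoecious libraries in the authors' deposited table, the same order of libraries as the 27, 7, 4 and 0 reads of Unigene67337. ERF 9 (MELO3C002624) has 632, 460, 517 and 139 reads there, against 9, 0, 0 and 0 for Unigene75379. ANT (MELO3C007657) has only 18, 4, 22 and 13 reads in the authors' deposited table, against 28737, 17155, 53395 and 24514 for Unigene21576, with the andromonoecious library highest and the hermaphrodite lowest in both. ERF010 (MELO3C007573) was listed at a log2 ratio of -2.49 for gynoecious over monoecious plants in the authors' deposited table, and Unigene12526 had a ratio of 0.667 (0.621 to 0.716) for that pair.

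**Figure D3:**
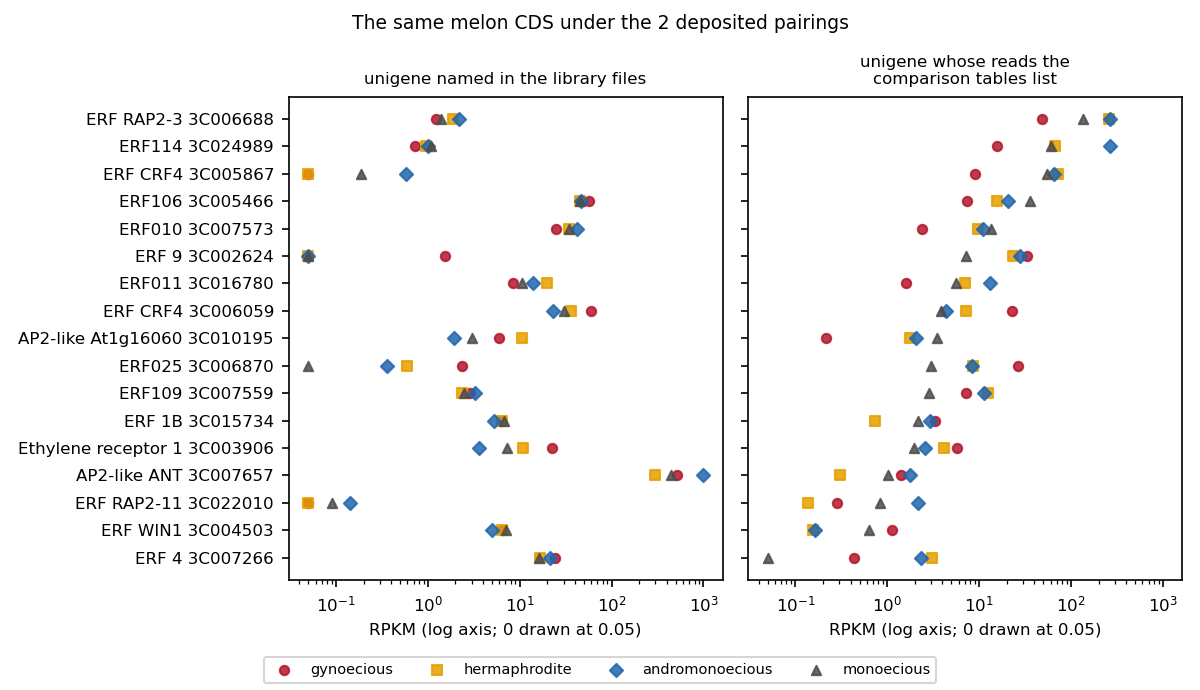
RPKM per library (log axis, 0 drawn at 0.05) of the 17 melon CDS found both among the members and in the authors' comparison tables, for the unigene that the library files name (left) and the unigene whose reads the comparison tables list (right). Under the authors' tables CRF4 (3C005867) and RAP2-3 lie far higher and ANT far lower than under the library files.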

How the data were processed

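The authors deposited 1 file per library with RPKM for each unigene, the product names, a BLAST table with percent identity of matches, and comparison tables with raw read counts, RPKM, log2 ratios and p-values. Per the file headers, the library totals stand in the column names. Which assembler and aligner were used is not given in the sources used here. The shortest length from 200 to 20000 nt that gave whole reads in all 4 libraries was taken for each unigene. Of 1049 unigenes with listed reads, 996 (94.9%) had the same reads, while the rest had listed lengths of at most 4 times those recovered, so reads of a member may be understated by a whole factor; this leaves its RPKM as deposited. Recovered reads made up 98.2 to 98.3% of the totals. Of the BLAST matches of unigenes in the library files, 95% ended within the recovered length.

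The test, on unigenes kept by filterByExpr of edgeR at a minimum count of 10, was limma 3.58.1 on log2(RPKM + 1), with Benjamini-Hochberg adjustment at 0.05. Alternatives on recovered reads used edgeR 4.0.16 and DESeq2 1.42.0. For low unigenes the log2(RPKM + 1) scale understates a difference. Nothing in the labels marks the bulks as repeated cultures, so a p-value here reflects the spread among 4 bulks alone, and an exact permutation test of 2 libraries against 2 cannot go below 0.333 (two-sided). Pair ratios used TMM-scaled reads; counts of pairs used a prior count of 1 and at least 50 reads. The scripts were tested on simulated data. Named were all receptors and signalling proteins and, among the others with at least 100 reads, the 20 with the largest ratio between libraries, the 5 with the highest level, and the 3 with the largest difference in each split and direction whose sides did not overlap. Members, lists and tests were chosen with earlier results of these data known. 16 columns of the locus tables were not used.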

Additional observations from a re-analysis of the deposited data

Results flagged for a closer look

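Of 28 named members with at least 100 reads, 18 had ratios of opposite sign for 1 locus on the 2 backgrounds of the other. The share over all unigenes was not counted, so this number is not a result about the members. The 3 given here are those with at least 2-fold on both backgrounds. With 1 library in each class, the difference between the 2 backgrounds is the same contrast as plants with against without male flowers. The ratios below thus restate that split and add no separate result. The difference was not tested apart from it. Ethylene receptor 1 (Unigene34761) had a log2 ratio of 1.48 for labelled gg over GG in AA plants (gynoecious over monoecious) and of -1.39 in aa plants (andromonoecious over hermaphrodite). ERF 12 (Unigene26608) had the reverse signs for the same contrast, -1.94 in AA plants and 1.21 in aa plants. Its aa over AA ratio was -1.55 in labelled GG plants and 1.60 in labelled gg plants. The AP2-like unigene named At1g16060 (Unigene67390) had an aa over AA ratio of 1.60 in labelled GG plants (hermaphrodite over monoecious) and of -1.37 in labelled gg plants (andromonoecious over gynoecious). The latter rests on 11 and 35 reads, under the minimum of 50 reads in a pair used elsewhere. The CDS of this unigene has other reads in the authors' tables.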

How the results depend on the processing

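No paired analysis was possible because each sex type has 1 library and no replicate number shared through the labels. The count of members called stayed at 0 in all 3 splits with edgeR, DESeq2, other scaling, another pseudocount, no filter, well matched members alone, and with each library left out in turn (0 to 0), where the lone library of a side is assumed to vary like the others. With 2 libraries a side few unigenes pass at all, so this says little about stability. No sign turned among 126 values of 21 named differences, but 25 values, of 13 differences, moved by more than 1.5 times: ERF034 went to 2.20 with a pseudocount of 0.1 (1.20 with 1), ERF105 to 0.31 and ERF012 to -0.15 without the gynoecious library (0.98 and -0.60 with it), ESR2 to 0.61 without the andromonoecious library (1.16 with it), and RAP2-7 of Unigene12066 to -0.20 under TMM scaling (-0.36 in RPKM). With TMM scaling, added after the data were seen, 4 members in place of 2 were higher in both aa than in both AA libraries. Counts of members at least 2-fold apart moved with the read minimum. With no minimum beyond 1 read in the pair they were 16 for gynoecious over monoecious (6 with at least 50 reads), 11 for hermaphrodite over monoecious (3), 10 for andromonoecious over monoecious (3), 16 for hermaphrodite over gynoecious (8), 22 for andromonoecious over gynoecious (8) and 17 for hermaphrodite over andromonoecious (7). With at least 100 reads they were 0 for hermaphrodite over monoecious and 4 for hermaphrodite over andromonoecious. With well matched members alone they were 3 for gynoecious over monoecious, 1 for hermaphrodite over monoecious and 3 for hermaphrodite over gynoecious, among fewer members. Depth limits the 19 members under 100 reads, for which single reads decide a ratio.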
